A study of Mus musculus with 550 samples.

Results

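The cells described here were wild-type (WT) cells of day 3 embryoid bodies (EBs) with high or low levels of *Lefty1*. The study grew EBs, the floating aggregates in which embryonic stem cells (ESCs) begin to differentiate, to follow what loss of either de novo DNA methyltransferase does to lineage choice. The WT ESCs were of the mouse line E14 (strain 129/Ola), and EBs formed in low-attachment plates without leukemia inhibitory factor, the cytokine that holds ESCs undifferentiated. EBs of each clone were pooled and dissociated, single live cells were sorted into wells of 96-well plates, and full-length cDNA was sequenced by a modified Smart-seq2 protocol without molecular identifiers. Of 91 WT day 3 cells, 79 had at least 50000 assigned reads, at least 2000 detected genes and at most 50% of reads from mitochondrial genes. Within each library batch these cells were ranked by their *Lefty1* level in CPM (reads per 1000000 assigned reads of the cell), and members were chosen by that level alone, as the highest and the lowest tertile (an equal part of the ranked cells, of 3): 18 and 18 cells of batch 1 and 8 and 8 cells of batch 2. The 52 members, 26 *Lefty1*-high and 26 *Lefty1*-low, were drawn from 550 cells in the whole series, and 27 WT day 3 cells formed the middle tertile.

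LEFTY1 and LEFTY2 are secreted antagonists of NODAL, a ligand of the TGF-beta family that signals through activin receptors, the co-receptor CRIPTO (encoded by *Tdgf1*) and SMAD2 and SMAD3 with FOXH1. In the mouse epiblast this pathway switches on *Lefty1*, *Lefty2* and *Nodal* itself, so that the inhibitors are made by cells that receive the signal. The pathway helps to maintain the epiblast and later to pattern the primitive streak, and *Lefty1* is widely used as a marker of pluripotent cells.

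Since *Lefty1* chose the cells, its own levels are a description and were not tested. In batch 1 the low tertile ran from 0 to 158.7 CPM with a median of 55.1, and 3 cells had no read. The high tertile of that batch ran from 849.5 to 4441 CPM with a median of 1561. In batch 2 the low tertile ran from 0 to 64.1 CPM, with 4 cells at 0, and the high tertile from 885.8 to 3378 CPM with a median of 1026. The middle tertile, just outside these bounds, held *Lefty1* at 175.4 to 827.0 CPM in batch 1 and at 189.2 to 762.2 CPM in batch 2. The bounds of batch 1 thus cut through a gradient, while in batch 2 there was a step of over 100 CPM at each bound. Ranking all cells without regard to batch chose the same tertiles.

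The labels name no culture or clone for a cell, so the WT day 3 cells were 1 sample, and cells of 1 sample are not replicates. No test was run, and each gene is described by its summed level in each tertile, in both batches and in single cells. Intervals are 95% exact Poisson intervals of summed reads and 95% exact (Clopper-Pearson) intervals of shares. The former cover counting error only. The latter treat cells as independent draws, and neither covers differences between samples. Summed reads were 5981910 for the high tertile and 6073508 for the low tertile. Median reads per cell were 210760 and 205467 in batch 1 and 223516 and 241340 in batch 2. Median detected genes were 7276.5 in the high and 6995 in the low tertile of batch 1 and 7500 and 6138.5 in batch 2. The median mitochondrial share was 5.55% and 4.44% in batch 1 and 12.9% and 12.2% in batch 2. The genes for the de novo methyltransferases were read in both tertiles. *Dnmt3a* was at 371.6 CPM in the high and 333.1 CPM in the low tertile and *Dnmt3b* at 580.6 and 707.3 CPM. These sums do not show the genotype of single cells, which was not tested.

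*Lefty1* and *Lefty2* are neighbouring, similar genes, and reads that mapped to more than 1 place had been left out by the authors, so how far their reads can be told apart bears on every value below. *Lefty1* lies on the plus strand of chromosome 1 at 180935022 to 180938400 (GRCm38) and *Lefty2* on the same strand at 180893108 to 180899103. Their coding sequences, of 1104 bases each, differ at 90 positions and are 91.8% identical. The stretch of 120 coding bases with the most differences lies in exon 1 of both, at chr1:180935155-180935274 for *Lefty1* and chr1:180893229-180893348 for *Lefty2*, coding bases 46 to 165, and is shown because reads from it can be assigned to one gene. Capitals mark the 34 bases that differ.
Lefty1: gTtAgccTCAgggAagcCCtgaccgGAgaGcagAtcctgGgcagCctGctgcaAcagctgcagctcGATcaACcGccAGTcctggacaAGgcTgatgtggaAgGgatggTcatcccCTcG
Lefty2: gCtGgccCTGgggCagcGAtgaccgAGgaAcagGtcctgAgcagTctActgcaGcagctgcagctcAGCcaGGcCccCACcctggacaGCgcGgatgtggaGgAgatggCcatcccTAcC

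Of the 1546 windows of 75 bases (the read length) in the *Lefty1* transcript, 173 (11.2%) also occur without a mismatch in that of *Lefty2*, and 579 (37.5%) occur there with at most 3 mismatches. Reads from the identical windows could be counted for neither gene. Of the 7 WT day 3 cells without a *Lefty1* read, 5 had *Lefty2* reads, at up to 281.1 CPM, so *Lefty2* was counted in cells with no *Lefty1* read.

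*Lefty2*, the other NODAL antagonist, was higher in *Lefty1*-high cells in both batches. In batch 1 single cells ran from 74.1 to 7430 CPM (median 938.1) in the high tertile and from 0 to 1537 CPM (median 186.2) in the low tertile. In batch 2 they ran from 119.7 to 6371 CPM (median 1001) in the high and from 0 to 522.0 CPM (median 185.5) in the low tertile. The tertiles overlapped, with 10 of 26 high cells above every low cell and 22 above the low median. Summed, *Lefty2* was at 1436 CPM (95% interval 1405 to 1466) in the high, 860.4 CPM in the middle and 345.4 CPM (330.8 to 360.5) in the low tertile. Single cells did not rise in this order in batch 1, where the median of the middle tertile was 1299 CPM, above that of the high tertile. In batch 2 the middle median was 387.7 CPM. A single cell gave 18.2% of the *Lefty2* reads of the high tertile. The log2 ratio of high over low, taken throughout on log2(CPM + 1), was 2.05, with 1.67 in batch 1 and 2.89 in batch 2. After every cell was thinned to 50000 reads, 26 of 26 high cells and 19 of 26 low cells (73.1%, 52.2 to 88.4%) still had a *Lefty2* read, and unthinned these shares were 100% and 84.6%.

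**Figure D1:**
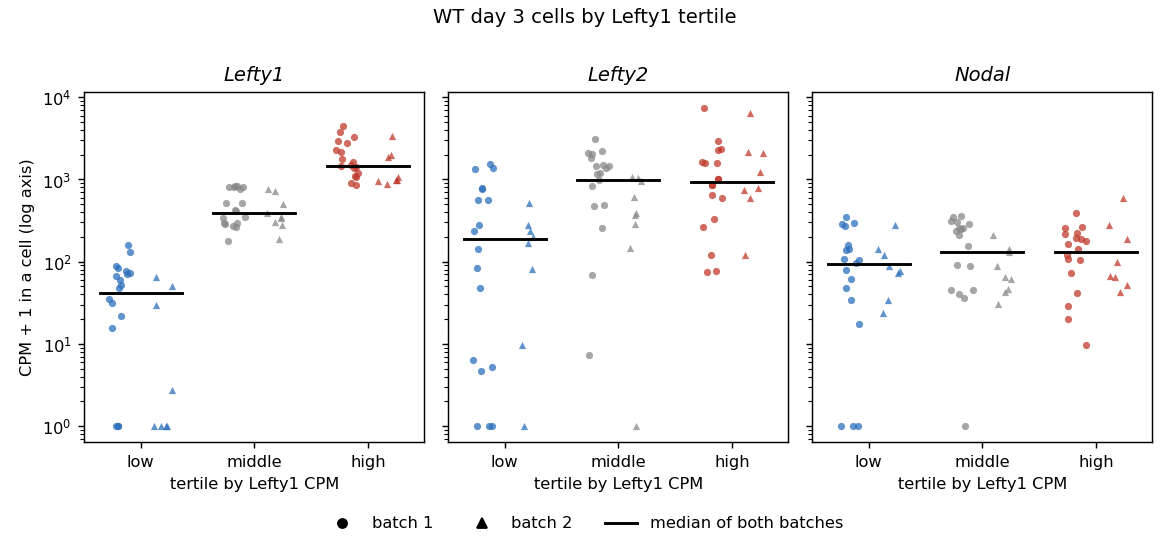
Levels of *Lefty1*, *Lefty2* and *Nodal* in the 79 WT day 3 cells by *Lefty1* tertile, as CPM + 1 on a log axis; each point is a cell (circles batch 1, triangles batch 2) and the bars are medians of both batches. *Lefty1* defines the tertiles; for *Lefty2* 10 of 26 high cells lie above every low cell, and the *Nodal* clouds largely coincide.

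*Nodal*, the ligand, differed little. The locus lies at chromosome 10, 61417972 to 61425338 (plus strand, GRCm38). In batch 1 it ran from 8.83 to 387.1 CPM (median 152.3) in the high tertile and from 0 to 348.3 CPM (median 100.6) in the low tertile. In batch 2 it ran from 42.2 to 592.4 CPM (median 82.7) in the high and from 22.8 to 281.7 CPM (median 81.6) in the low tertile. Summed levels were 137.6 CPM (128.3 to 147.3) in the high, 124.7 CPM in the middle and 108.7 CPM (100.5 to 117.3) in the low tertile, a log2 ratio of 0.34 (0.25 in batch 1 and 0.48 in batch 2). The ranges nearly coincided, and 2 of 26 high cells were above every low cell. *Nodal* reads were found in 6 of the 7 cells with no *Lefty1* read.

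Over all cells of a batch, the 3 tertiles included, likeness to *Lefty1* was measured as the Spearman rank correlation of CPM with *Lefty1* CPM, computed in each batch over 54 and 25 cells. This measure, and the genes named from its top ranks, were chosen after values had been seen, and cells of a batch share a plate region and their differences in depth. *Lefty2* had a rank correlation of 0.45 in batch 1 and 0.63 in batch 2, the highest of the genes named here when they are ordered by the lower of both values. *Bcl11a*, a zinc finger repressor, had 0.40 and 0.43, and *Nudcd3* had 0.39 and 0.47. *Nodal* had 0.13 and 0.07. The rank correlation of *Lefty1* with the number of reads of a cell was 0.09 and 0.04, and with the number of detected genes 0.18 and 0.34. In what follows, a gene is called widely read when 25% or more of the cells of the high or low tertile had a read of it.

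The genes for ligands and receptors of the pathway gave no shared direction. Of 6 genes for NODAL-type ligands and their processing, 3 were widely read: *Nodal*, *Gdf3* (a TGF-beta family ligand of ESCs, log2 ratio -0.12) and *Pcsk6* (a convertase that cleaves pro-NODAL, 0.85 at 4.35 and 1.98 CPM). *Gdf1* was at 0, and all its exon bases are shared with *Cers1*. Among receptors, *Acvr2b* had a ratio of 0.55 (29.4 CPM in the high and 19.8 CPM in the low tertile), *Acvr2a* 1.23 (11.03 and 4.12 CPM), and the co-receptor gene *Tdgf1* was lower, at 727.0 CPM in the high and 961.4 CPM in the low tertile (-0.40, with -0.42 and -0.36 in the batches). *Tdgf1* levels in single cells overlapped, from 0 to 3032 CPM (median 677.5) in the high and from 74.9 to 2092 CPM (median 824.2) in the low tertile. *Acvr1c* and *Cfc1* had no read in any tertile.

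Among the intracellular effectors, *Foxh1* was at 93.3 CPM in the high and 81.3 CPM in the low tertile, and the signs in the batches were opposite (-0.15 and 1.04). *Smad2* (0.76 and -0.77) and *Smad4* (0.51 and -2.37) also changed sign between the batches. Of the 10 genes for inhibitors, 8 other than *Lefty1* were read widely, and 6 of the 8 were above 0 in both batches, against 29% of 9997 genes. *Lefty2* was the 1 member past the fold (defined below). *Ski*, a co-repressor of SMAD proteins, was at 52.2 CPM in the high and 17.5 CPM in the low tertile (1.53, with 2.18 and 0.48), and *Pmepa1*, which sequesters SMAD proteins, at 10.5 and 2.47 CPM (1.73, with 1.83 and 0.43). *Smad7* had a ratio of 0.26, *Skil* 0.04 and *Tgif1* -0.19. *Cer1*, a secreted inhibitor of the anterior endoderm, was at 0 in all 3 tertiles.

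*Eomes*, a T-box factor that NODAL activates in the primitive streak, was at 13.4 CPM in the high, 15.8 CPM in the middle and 27.7 CPM in the low tertile (-1.12 and -0.79 in the batches). *Mixl1* was at 0, *T* and *Gsc* had no read in the high tertile, and *T* was at 0.66 CPM in the low tertile. Primitive streak genes were thus hardly read in these day 3 cells. The medians of the NODAL lists were 0.34 for ligands, 0.55 for receptors, 0.02 for effectors and 0.48 for inhibitors, over 3 to 8 widely read members each, beside 0.04 over all widely read genes.

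Across all genes, the tertiles differed at many genes of low level and with poor repeatability. A gene was called past the fold when it was read in at least 25% of the cells of the higher tertile in each batch, had a log2 ratio of at least 1 in size with the same sign in both batches, and no single cell gave over 50% of the reads of the higher tertile. Of 9397 genes measured this way, 213 were higher in *Lefty1*-high cells (2.27%, 212 without *Lefty1*) and 96 were lower (1.02%). Without the limit on 1 cell, 333 genes differed by at least 1 with the same sign in both batches, and 309 genes with opposite signs. The ratios of the batches had Pearson's r of 0.08 across tested genes. About as many genes thus differed in the same way in both batches as in opposite ways. Levels of the genes past the fold were low, with a median of 16.05 CPM in the high tertile for the higher genes and 17.2 CPM in the low tertile for the lower genes, against 33.9 CPM in the higher tertile for all tested genes.

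**Figure D2:**
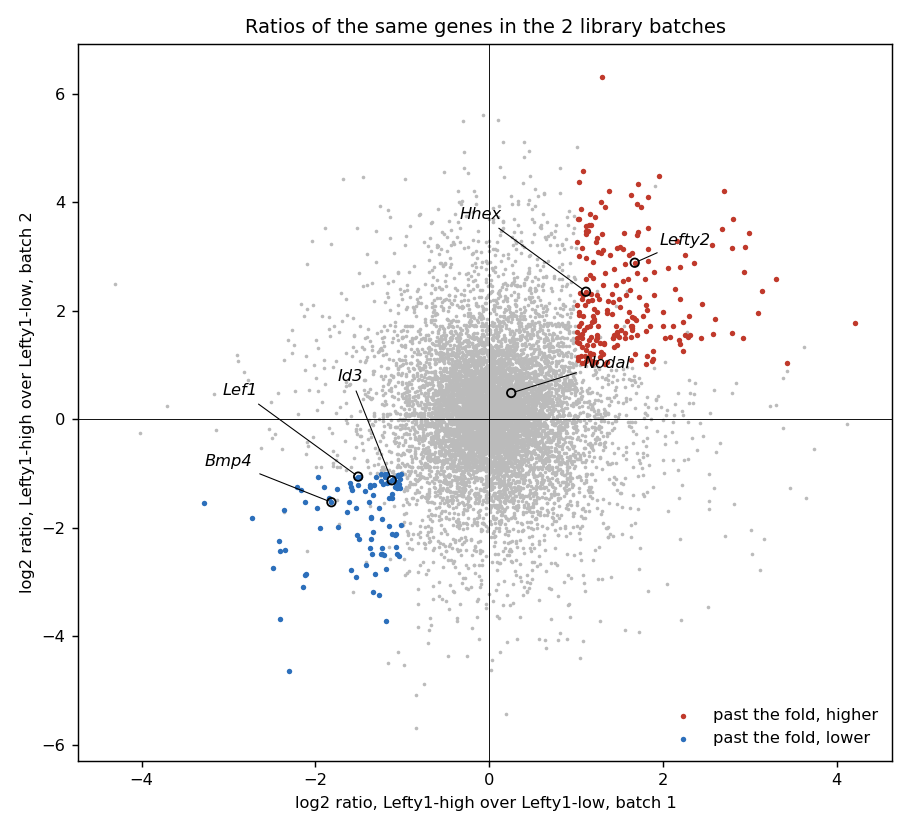
Log2 ratio of *Lefty1*-high over *Lefty1*-low cells in batch 1 (x axis) and batch 2 (y axis) for the tested genes without *Lefty1*; red and blue points are past the fold (212 higher, 96 lower) and circles mark genes named in the text. The cloud has no tilt to speak of (r of 0.08), with *Lefty2* in the upper right and *Bmp4*, *Lef1* and *Id3* in the lower left.

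The middle tertile, which did not enter the ratio, lay between the high and low levels for 158 of the 212 higher and 65 of the 96 lower genes, and for 33% of all widely read genes. A gene chosen for a wide gap leaves more room between its levels, so nothing is read from this difference.

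The 12 highest genes past the fold were *Bloc1s5*, *Aqp11*, *Col8a2*, *Nefm*, *Stk39*, *Cpn1*, *Camk2d*, *Gramd3*, *Nefl*, *Nradd*, *Scmh1* and *Arfgef1*, with log2 ratios from 3.36 down to 2.62. Their known roles are diverse: *Nefm* and *Nefl* encode neurofilament subunits, *Aqp11* an aquaporin, *Stk39* a kinase of the cell volume response, *Camk2d* a calmodulin-dependent kinase and *Scmh1* a Polycomb protein. Their levels in the high tertile were 9.19 to 34.9 CPM, and in the low tertile 0.49 to 3.79 CPM. *Camk2d* was read in 7 of 26 high and 3 of 26 low cells at 50000 reads, and *Bloc1s5* in 6 and 0 cells. The median of single high cells was 4.74 CPM for *Camk2d*, 4.93 CPM for *Nefl*, 2.37 CPM for *Nradd* and 0 CPM for the others. A single cell gave 43.5% of the *Aqp11* reads of the high tertile, and a single cell 41.1% of the *Nefl* reads. *Nefl* and *Nefm* lie on opposite strands and share 32.8% and 19.2% of their exon bases, so their reads may not be told apart.

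The 12 lowest were *Btbd3*, *Ildr1*, *Notch4*, *Utp14b*, *Fam126b*, *Bace1*, *Ddr1*, *Rbl1*, *Prrg2*, *Abcb1b*, *Tnip2* and *Pianp*, with log2 ratios from -3.11 to -2.35. *Notch4* encodes a Notch receptor, *Ddr1* a collagen receptor, *Rbl1* the retinoblastoma-like protein p107 and *Bace1* a secretase that shares 32.5% of its exon bases with other genes. Their levels in the low tertile were 4.94 to 45.3 CPM, from 30 reads (*Pianp*) to 275 reads (*Utp14b*). At 50000 reads, *Btbd3* was read in 9 of 26 low and 5 of 26 high cells, and *Ddr1* in 7 and 1 cells. The median level of single high cells was 0 CPM for all 12. In single low cells the median was also 0 CPM for each of them but *Fam126b* (4.41 CPM).

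Among genes past the fold with at least 50 CPM in the higher tertile, a limit chosen after values had been seen, 13 were higher, *Lefty1* among them, and 10 were lower, of 3614 tested genes at that level. *Lefty2* was among them, and so were *Stard4* (79.6 and 19.4 CPM), which carries cholesterol between membranes, and *Tmx1* (83.4 and 21.4 CPM), a thioredoxin of the endoplasmic reticulum. *Polr3d*, a subunit of RNA polymerase III, was at 67.2 CPM in the high and 25.5 CPM in the low tertile with close values in the batches (1.33 and 1.41), and 24 of 26 high cells were above the low median. *Bag2*, *Cd63*, *Ckap4*, *Ints5*, *Polrmt*, *Pdlim1* and *Tmc6* had ratios from 1.12 to 1.58.

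The 10 lower genes at that level were led by *Bmp4*, the ligand of BMP signalling. *Bmp4* was at 17.9 CPM (14.7 to 21.6) in the high, 48.7 CPM in the middle and 60.3 CPM (54.2 to 66.8) in the low tertile, a log2 ratio of -1.70 (-1.81 and -1.53 in the batches). It was read in few cells: single high cells ran from 0 to 117.4 CPM and single low cells from 0 to 359.1 CPM. At 50000 reads, 5 of 26 high cells (19.2%, 6.55 to 39.4%) and 12 of 26 low cells (46.2%, 26.6 to 66.6%) had a *Bmp4* read, and unthinned 5 and 13 cells. Both ranges began at 0 and overlapped. The intervals of the shares overlapped too, but they treat cells as independent draws and are no test of this difference. The others were *Egln3*, *Gys1*, *Rad18*, *Xpo5*, *Zfp955b*, *Id3*, *Kank3*, *Poli* and *Mlx*, with ratios from -1.53 to -1.04. *Zfp955b* shares 36.5% of its 75-base windows with other genes.

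The lists of genes for signals and lineages were described by the median of their widely read members, beside a median of 0.04 over 9997 genes. Of 7 genes of the BMP response, 5 were widely read, with a median of -0.85 (-0.37 in batch 1 and -1.12 in batch 2), 4 were below 0 in both batches, against 21.3% of all genes, and *Bmp4* and *Id3* were past the fold. This median depended on how the cells were split: with cells split at the median *Lefty1* level in place of tertiles it was 0.04. *Id3*, which encodes an inhibitor of basic helix-loop-helix factors and is a direct BMP target, was at 28.8 CPM in the high and 65.2 CPM in the low tertile. *Id2* had a ratio of -0.85 and *Id1* of -0.23, and *Bambi*, a decoy receptor, was higher in the high tertile (18.6 and 7.41 CPM). *Id3* was read in 11 high and 13 low cells at 50000 reads, 1 cell gave 44.4% of the low reads, and its rank correlation with *Lefty1* was -0.02 and -0.09.

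Summed levels of core pluripotency genes differed little between the tertiles, and more naive pluripotency genes were below than above 0. All 10 core pluripotency genes were widely read, with a median of -0.09 and none past the fold. In both batches 2 were below and 0 above 0, against 21.3% and 29% of all genes. *Pou5f1* was at 311.3 CPM in the high and 326.5 CPM in the low tertile, *Nanog* at 222.0 and 240.2 CPM and *Sox2* at 85.26 and 68 CPM. The sums hid differences between the batches. Single-cell medians of *Pou5f1* were 302.2 CPM in the high and 469.7 CPM in the low tertile of batch 1, and 239.8 and 176.1 CPM in batch 2. Those of *Nanog* were 183.5 and 186.8 CPM in batch 1 and 253.6 and 131.6 CPM in batch 2. Of 14 naive pluripotency genes 12 were widely read, with a median of -0.42 (-0.15 and -0.97 in the batches), and 5 were below 0 and 1 above 0 in both batches, against 21.3% and 29% of all genes. *Zfp42* was at 468.8 CPM in the high and 613.3 CPM in the low tertile, and *Klf2* at 72.2 and 115.6 CPM. *Nr0b1* had the opposite sign, at 420.1 and 289.8 CPM.

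Of 12 genes of the primed epiblast, 9 were widely read. Their median was -0.23 over both batches but 0.36 in batch 1 and 0.86 in batch 2, so the sign of this median depended on how cells were summed. *Fgf5*, a marker of the post-implantation epiblast, had ratios of 1.39 in batch 1 and -2.11 in batch 2, and *Otx2* of 0.36 and -1.30. Above 0 in both batches were 3 of the 9, against 29% of all genes: *Fgf15* (0.64), *Tead2* (1.14) and *Nefl*, the 1 member past the fold, which is among the 12 highest genes given above.

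Few lineage markers were read in either tertile. Of 15 primitive streak and mesoderm genes 1 (*Eomes*) was widely read, of 8 definitive endoderm genes 1 (*Hhex*), of 9 trophoblast genes 2 (median 1.08) and of 12 neural ectoderm genes 5. *Cdx2*, *Elf5* and *Gata3*, which define trophoblast, were at 0. *Hhex*, an anterior endoderm homeobox factor, was past the fold at 12.04 CPM in the high and 3.79 CPM in the low tertile. *Krt8*, a keratin of simple epithelium, was past the fold at 39.95 and 6.75 CPM, 1 cell, the cell with endoderm genes described below, gave 44.8% of its high reads, and 23.5% of its 75-base windows occur in other genes. The neural genes had a median of 0.28, with *Sox1* at 3.84 and 7.24 CPM and *Pax6* at 13.7 and 13.8 CPM.

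**Figure D3:**
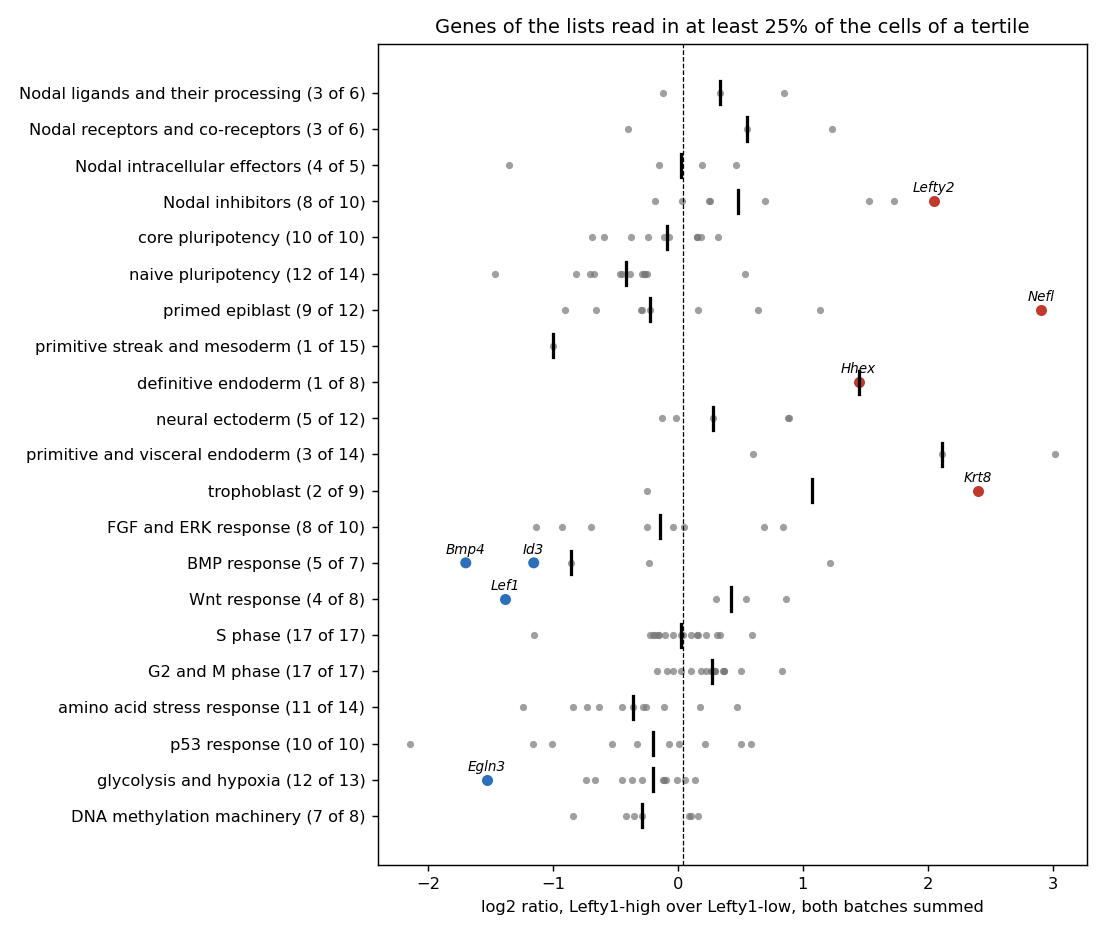
Log2 ratio of *Lefty1*-high over *Lefty1*-low cells, both batches summed, for widely read members of 21 gene lists (number read of number listed in brackets); bars are list medians, the dashed line is the median of 9997 genes, and coloured, named points are past the fold. *Lefty2* stands right of the rest of its list, and the medians of the core pluripotency (-0.09) and S phase (0.02) lists lie near 0.

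One *Lefty1*-high cell of batch 1 carried an endoderm profile. Summed over the primitive and visceral endoderm list without *Apoe* and *Sparc*, it had 4878 CPM. The other high cells had at most 144.9 CPM, the middle tertile 136.7 CPM and the low tertile 156.5 CPM. Of the 14 genes of the whole list, *Apoe* and *Sparc* included, 12 were read in this cell. It gave 100% of the *Gata6*, *Foxa2*, *Sox7* and *Pdgfra* reads of the high tertile, 98.9% of *Dab2* and 91.4% of *Sparc*. *Afp* and *Cer1* had no read in it. The same cell had *Lefty1* at 2310 CPM, *Lefty2* at 1621 CPM and *Pou5f1* at 257.9 CPM, within the range of other high cells for *Lefty2*. Its 364494 reads and 8740 detected genes were the most in the high tertile of batch 1. Whether its well held more than 1 cell was not tested. The endoderm list had a median of 2.11 over its 3 widely read members (2.28 in batch 1 and 0.54 in batch 2) and none past the fold, and without this cell the median was 0.28. Without this cell, an alternative added after the data had been seen, 190 genes were higher and 109 lower, and 169 and 83 of the earlier calls were among them. *Lefty2* stayed past the fold. *Krt8* and *Nefl*, of whose high reads this cell gave 44.8% and 41.1%, also stayed past the fold, with log2 ratios of 1.66 and 2.26 in place of 2.40 and 2.91. *Id3*, which had no read in it, was no longer past the fold. Its log2 ratio over both batches was then -1.07, but a call asks for a size of at least 1 in each batch.

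Cell cycle genes differed little in level between the tertiles. The 17 S phase genes had a median of 0.02 (-0.25 in batch 1 and 0.41 in batch 2), and the 17 genes of G2 and M phase 0.27 (-0.04 and 0.63), with none of either list past the fold. Of the G2 and M phase genes 8 were above and 1 below 0 in both batches, and of the S phase genes 4 and 4, against 29% and 21.3% of all genes. *Pcna* was at 663.0 CPM in the high and 712.6 CPM in the low tertile, and *Cdk1* at 272.3 and 233.0 CPM. The batch medians were spread more than the lists departed from 0.

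Signals other than NODAL were mixed. Of 8 widely read genes of the FGF and ERK response (median -0.14), 4 were below and 3 above 0 in both batches, against 21.3% and 29% of all genes, with *Dusp6*, a phosphatase that ERK induces, at 89.1 CPM in the high and 170.1 CPM in the low tertile and *Spry4* at 51.8 and 31.8 CPM. Of 4 widely read Wnt response genes (median 0.42) *Lef1*, a factor of canonical Wnt signalling, was past the fold, at 15.0 CPM in the high and 40.8 CPM in the low tertile (13.7% of its exon bases overlap another gene), while *Axin2*, *Tcf7* and *Notum* (38.1% overlap) were above 0 in both batches, against 29% of all genes. Medians were -0.36 for the amino acid stress response (-0.60 and 0.26 in the batches), -0.20 for the p53 response (0.13 and -0.72), and -0.20 for glycolysis and hypoxia (-0.40 and 0.21), where *Egln3*, an oxygen-sensing prolyl hydroxylase, was past the fold. The DNA methylation machinery had a median of -0.28, and *Dnmt3l*, the cofactor of the de novo enzymes, was at 78.1 and 140.3 CPM.

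To see which differences recur in cells that the ranking above did not use, cells of 3 other groups were ranked by *Lefty1* in the same way: WT cells of day 9 and cells labelled *Dnmt3a*-/- (3AKO) and *Dnmt3b*-/- (3BKO) of day 3. The labels of the mutant day 3 cells of batch 2 went against their *Dnmt3a* levels, with 334.5 CPM under the 3AKO label and 12.8 CPM under the 3BKO label, against 25.8 and 586.7 CPM in batch 1. By the labels, 3BKO cells of batch 1 shared a plate with 3AKO cells of batch 2. Likewise, 3AKO cells of batch 1 shared a plate with 3BKO cells of batch 2. Which genotype the batch 2 cells had was not tested, and 3AKO and 3BKO below stand for labels. Values are therefore given by batch unless stated. A call past the fold asks for both batches under 1 label, so under the mutant labels it joins cells of unlike *Dnmt3a* level. The tertiles held 29 cells each in WT day 9, 27 in 3AKO and 26 in 3BKO.

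*Lefty2* was higher in the *Lefty1*-high tertile of every group in both batches. Its log2 ratio was 5.21 and 0.46 in batches 1 and 2 of WT day 9, 0.49 and 2.72 with the 3AKO label and 1.19 and 2.17 with the 3BKO label. It was past the fold in the 3BKO group, where 3.15% of genes were higher, and not in the others. The rank correlation of *Lefty1* with *Lefty2* was 0.73 and 0.24 in WT day 9, 0.26 and 0.70 in 3AKO and 0.60 and 0.67 in 3BKO.

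*Nodal* had ratios of -0.05 and -0.63 in batches 1 and 2 of WT day 9, -0.13 and 0.68 with the 3AKO label and 0.09 and 1.33 with the 3BKO label. *Bmp4* had opposite signs in the batches of each of these 3 groups, with 0.73 and -3.14 in WT day 9, -3.07 and 1.87 in 3AKO and -0.42 and 0.93 in 3BKO. *Id3* was past the fold, lower, in WT day 9 (-1.01 and -3.13) and 3AKO (-1.21 and -1.06), where 2.23% and 1.44% of genes were lower, and had 0.42 and 1.46 in 3BKO.

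Of the genes past the fold, the share that kept its sign elsewhere varied between batches and was in places below that of all genes. Of the 95 higher genes read widely in WT day 9, 47.4% were higher in batch 1 and 63.2% in batch 2, against 48.6% and 51.3% of all 8169 genes. Of 182 in 3AKO, 43.4% and 61.5% were higher, against 47.6% and 53.8%, and of 175 in 3BKO, 60% and 61.7%, against 56.6% and 60.7%. Of the 56 lower genes read widely in WT day 9, 50% and 60.7% were lower, against 51.4% and 48.6%. Of 86 in 3AKO these shares were 51.2% and 55.8%, against 52.4% and 46.1%, and of 85 in 3BKO 49.4% and 44.7%, against 43.4% and 39.1%. Of the 95 higher genes other than *Lefty1* in WT day 9, 6 were past the fold in the same direction. In 3AKO these were 8 of 182 and in 3BKO 12 of 175, *Lefty2* and *Scmh1* among the latter. Of all genes tested in these groups, 1.87%, 1.72% and 3.15% were called higher. Of the lower genes, 3 of 56, 4 of 86 and 3 of 85 were past the fold in the same groups. There 2.23%, 1.44% and 0.988% of all tested genes were called lower. The 12 highest and 12 lowest genes were also followed with both batches of a label summed. Of the 12 highest, among those widely read, 3 of 4 were higher in WT day 9, 9 of 10 in 3AKO and 6 of 8 in 3BKO. The shares of all genes were 48.9%, 50.3% and 59.3%. Of the 12 lowest, 2 of 4, 6 of 9 and 3 of 10 were lower, against 51.1%, 49.7% and 40.7%. These are few genes.

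**Figure D4:**
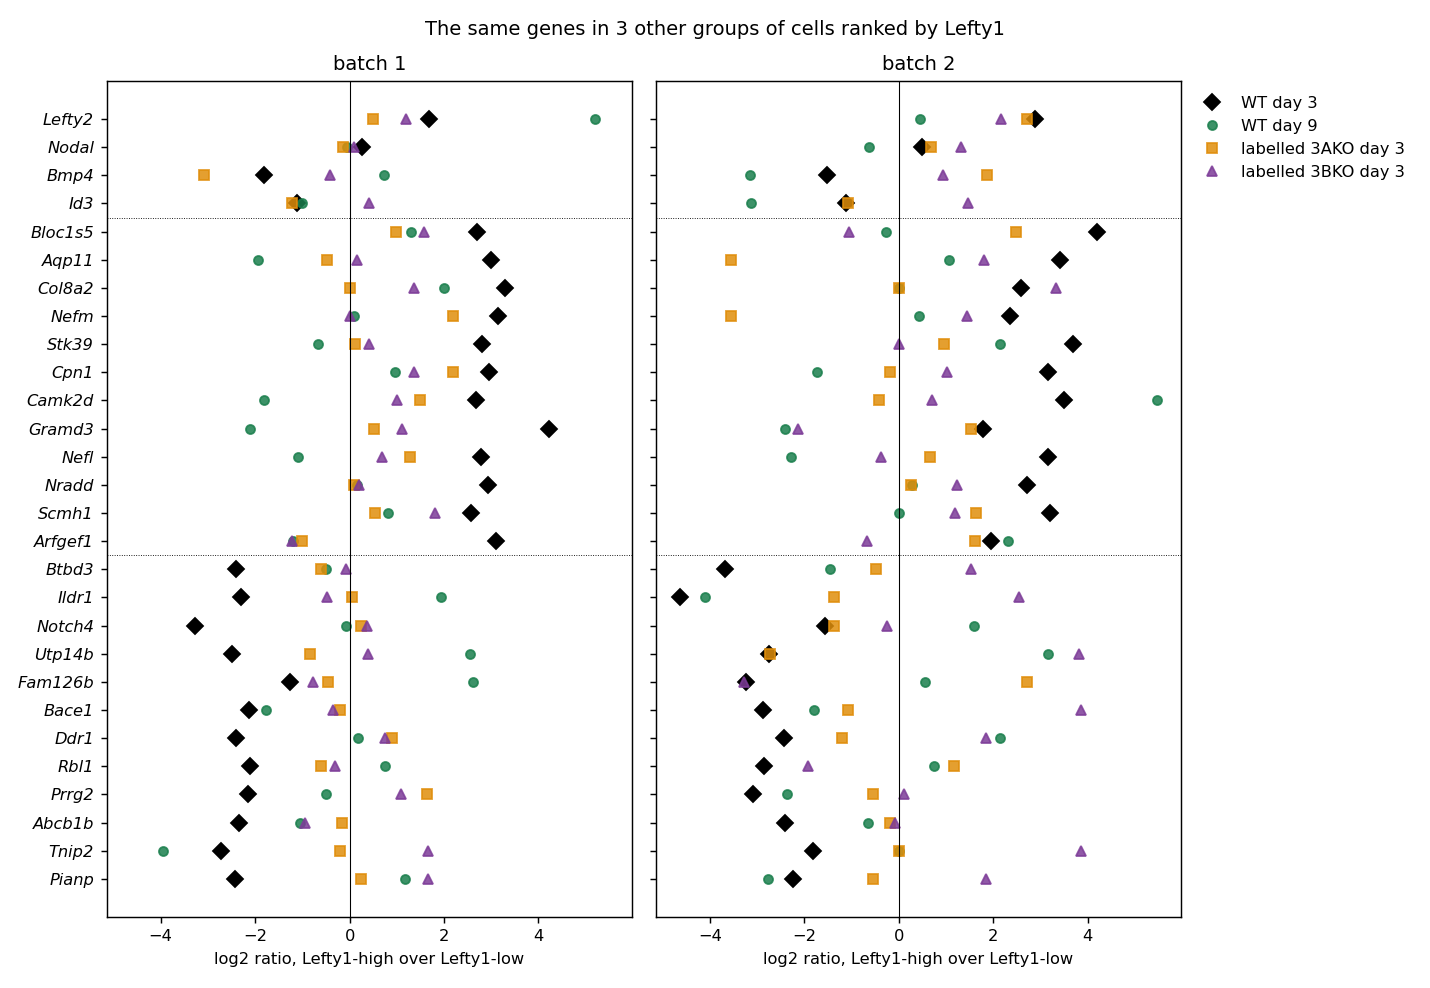
Log2 ratio of *Lefty1*-high over *Lefty1*-low cells in batch 1 (left) and batch 2 (right), in WT day 3 (black) and in 3 other groups ranked in the same way, for 4 genes of the NODAL and BMP pathways (top) and the 12 highest and 12 lowest genes past the fold in WT day 3. *Lefty2* lies right of 0 in all 4 groups in both batches, and the points of the other 3 groups fall on both sides of 0 among the 24 genes.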

How the data were processed

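Single EB cells were profiled with a modified Smart-seq2 protocol (single-end 75-base reads). The authors deposited raw read counts per gene: reads were trimmed with Trim Galore 0.5.0, aligned to GRCm38 with STAR 2.7.1a and assigned to GENCODE genes with featureCounts 1.6.1, without multi-mapped reads. Whether strand was used is not stated. Of the columns, 26 (empty or mini-bulk wells) carried no sample and were not used. Depth of the 79 cells was 59738 to 811379 reads.

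Cells were grouped by the labels, filtered and ranked by *Lefty1* CPM within each batch (batch 1 or 2, as labelled). Reads were summed per tertile, scaled to CPM and compared as log2(CPM + 1), which understates low genes. Named were the 12 highest and 12 lowest genes past the fold (without mitochondrial genes and unnamed gene models), the NODAL genes and members of 21 lists; 1 further list and 1 named gene are not reported here. Members and lists were chosen with earlier results of these data known. No test was run. Doublets were not looked for, 1 cell being sorted per well. Scripts (Python 3.11.15, pandas 2.3.3, scipy 1.17.1; edgeR and DESeq2 for scaling factors) were tested on simulated data. Positions and sequences came from GENCODE vM21.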

Additional observations from a re-analysis of the deposited data

How the results depend on the processing

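*Lefty2* was higher in *Lefty1*-high cells under all 16 alternatives for its ratio, with log2 ratios of 1.32 to 2.89, and past the fold under all 20 for the calls. Some of these could not change its result. Ranking over both batches chose the same tertiles. The other limits on detection and on 1 cell could not act on *Lefty2*, read in 100% of high cells with 18.2% of reads in its top cell. *Bmp4* was not past the fold under a split at the median or with no cell filter. *Nodal* had 0.19 to 0.66. *Lefty2* had 1.32 with cells split at the median in place of tertiles, 2.14 with cells ranked on thinned *Lefty1*, 1.83 under a stricter cell filter, 1.97 with cells thinned before summing, and 1.67 and 2.89 in batch 1 and batch 2 alone. *Nodal* had 0.19 with the split at the median, 0.50 with no cell filter and 0.66 with cells thinned before summing. The numbers of genes past the fold, 213 higher and 96 lower, were 92 and 50 with the split at the median. They were 687 and 516 in batch 1 alone and 1365 and 609 in batch 2 alone, where agreement between batches is not asked for. They were 25 and 6 with a pseudocount of 10 CPM, which holds back genes of low level. They were 360 and 200 with detection in 10% of cells, 83 and 34 in 40%, and 368 and 210 without that filter. The lower genes numbered 165 with the outer of 4 parts and 147 with a pseudocount of 0.1 CPM. With no cell filter 108 higher and 29 lower genes were shared with the 213 and 96, and with cells thinned first 81 and 25. The causes were not tested. Of all calls 68.9% were higher, against 57.1% in batch 1 alone and 80.6% with a pseudocount of 10 CPM. None of the 26 gene ratios recomputed under the alternatives (*Lefty2*, *Nodal* and the 12 highest and 12 lowest genes) changed sign. The 12 highest and 12 lowest genes had been chosen for wide ratios of the same sign in both batches. Their constant sign was thus largely set by that choice, and nothing is read from it. Ratios of other genes were not recomputed. Of 21 list medians 12 changed sign under at least 1 alternative, among them those of the BMP response (-1.36 to 0.04), the Wnt response (-0.11 to 0.66) and the NODAL ligands (-0.15 to 0.50). No paired analysis was possible because the result comes from no test.

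With 8 cells per tertile in batch 2 and 1 WT day 3 sample, none of these differences has a replicate check. Depth limits low genes most: the 12 lowest genes rested on 30 to 275 reads in the low tertile.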
